A study of Montastraea cavernosa with 311 samples.

Results

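The depth comparison of the reef-building coral Montastraea cavernosa at the site coded EFGB set 21 libraries from mesophotic colonies against 41 libraries from shallow colonies, 62 libraries in all, or 19.9% of the libraries of the series. They were chosen by their source names, EFGB_mesophotic and EFGB_shallow, and by having no time label, which leaves out the EFGB libraries of the time-labelled groups. The number in all 5 shallow EB titles, in 4 of 16 mesophotic EB titles and in 2 of 4 mesophotic V-16 titles is also the last number of a time-labelled EFGB title, so these libraries may come from colonies of the time-labelled experiment. No such number is shared by 2 of the 62 libraries. The series, which covers natural and transplanted colonies from the Gulf of Mexico and Belize, counted RNA tags from the host and from Cladocopium, the dinoflagellate alga that lives in it. Tags were counted per isogroup, a cluster of related transcripts that stands in for a gene, and 17901 isogroups belong to the host. Natural colonies were also sampled at 3 other sites. No treatment is labelled for these natural colonies, and the labels used here give site and depth class without metres, age, genotype or tissue. Nothing beyond the titles says whether libraries come from separate colonies, so p-values measure the spread between these libraries only, which may be technical.

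Mesophotic reefs lie in the dim zone beneath the shallow reef, where little light reaches the algal symbionts that live inside the coral's gastrodermal cells and feed their host with the products of photosynthesis. M. cavernosa is known to live at both depths. Much of the host's RNA serves protein synthesis and secretion, in which ribosomes make proteins and chaperones of the endoplasmic reticulum fold those bound for membranes, mucus and matrix.

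Library titles are spread unevenly over the depths. Of the 21 mesophotic libraries, 16 have titles that begin with EB, 4 hold V-16 and 1 holds IX-16. Of the 41 shallow libraries, 26 hold X-14, 10 hold V-16 and 5 begin with EB. Thus X-14 occurs at shallow depth only, and EB and V-16 are the titles found at both depths. Within EB, most mesophotic titles carry a number with more digits than any shallow title, so number series and depth partly coincide there. What a title tag stands for is not given in the labels, and where depth and tag coincide their parts cannot be told apart. Shallow libraries of 19084 host counts (replicate 5, X-14) and 19837 host counts (replicate 20, EB) fell under the minimum of 20000. Leaving them out left 21 mesophotic and 39 shallow libraries for the fits, except where they are said to be kept. Host counts and the symbiont share were compared by depth with both libraries kept.

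Over all title tags, mesophotic libraries were deeper and yet held fewer host isogroups. Host counts ran from 26478 over a median of 194521 to 1145508 in the 21 mesophotic libraries, against 19084, 52005 and 869611 in the 41 shallow libraries. The difference was 1.03 ± 0.44 on the log2 scale (SE; 2-sided permutation test, adjusted p = 0.0253 over 5 library measures). It did not pass without X-14 (0.54, adjusted p = 0.339), and in V-16 titles it was -0.95, with medians of 66073.5 host counts in mesophotic and 185164 in shallow libraries (exact permutation test, adjusted p = 0.795). The number of host isogroups with at least 1 count had a lowest value of 957, a median of 1782 and a highest value of 4142 in mesophotic libraries, against 945, 3570 and 6588 in the 39 shallow libraries. The ranges overlap widely, and the mean log2 number was 0.65 lower in mesophotic libraries (permutation test, adjusted p = 0.0033), with a difference of -0.30 without X-14 that did not pass (adjusted p = 0.226) and one of 0.11 in V-16 titles (exact permutation test, adjusted p = 0.795). After thinning each library to 20000 host counts, the median was 1125 isogroups in mesophotic libraries and 2691 in shallow libraries, with a log2 difference of -0.73 (adjusted p = 0.0034). The isogroup with most counts took a median of 6.64% of host counts in mesophotic libraries and 3.804% in shallow libraries (log2 odds 0.62, adjusted p = 0.0034). It was ribosomal protein L6 (Mcavernosa17045), a protein of the large ribosomal subunit, in 14 of 21 mesophotic and 14 of 39 shallow libraries.

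**Figure D1:**
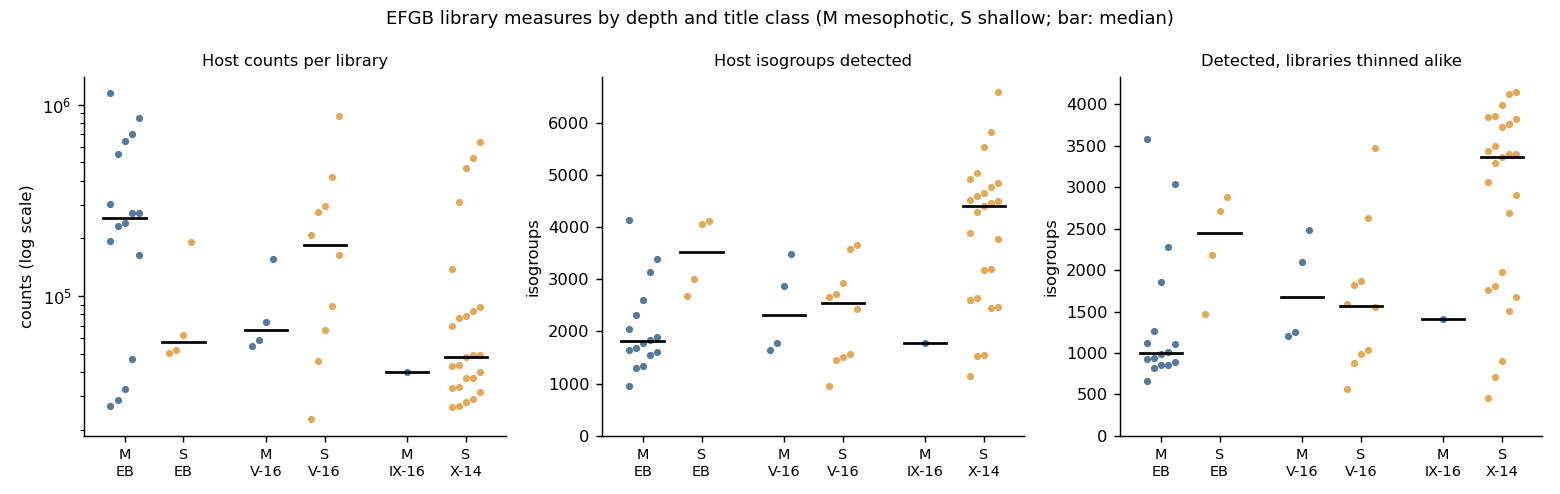
Host counts (log axis), host isogroups detected, and the same after thinning to equal host counts, for each library of mesophotic (M) and shallow (S) colonies, by title tag; bars are medians. After thinning, most EB mesophotic libraries lie below the EB shallow ones, with some overlap (medians 999 in mesophotic and 2450 in shallow), while V-16 libraries of both depths share a range.

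Library measures were also compared within title tags. Within EB titles, 16 mesophotic libraries had a median of 999 isogroups after thinning and the 4 shallow libraries had 1475, 2181, 2719 and 2885, a log2 difference of -0.89 (exact permutation test, adjusted p = 0.0487). Within V-16 titles, the 4 mesophotic libraries had 1210, 1247, 2098 and 2484 isogroups, against 567, 1568.5 and 3473 (lowest, median, highest) in 10 shallow libraries, a log2 difference of 0.22 (exact permutation test, adjusted p = 0.795). Without the X-14 libraries the difference was -0.33 (adjusted p = 0.226). The EB difference minus the V-16 difference was -1.10 on the log2 scale and did not pass (exact permutation test, adjusted p = 0.0754). Symbiont counts made up a median of 5.79% of all counts in mesophotic libraries and 8.78% in shallow libraries (log2 odds -0.44, adjusted p = 0.0522). This log2 odds difference was -0.38 without X-14 (permutation test, adjusted p = 0.226), -0.98 in EB titles (exact permutation test, adjusted p = 0.0487) and -0.31 in V-16 titles (exact permutation test, adjusted p = 0.795). The part of host depth, the top isogroup and the symbiont share in the gene results was not tested.

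Few host isogroups passed the test between the depths, and most that did were higher in mesophotic libraries. In counts scaled by TMM and tested by edgeR's quasi-likelihood method with Benjamini-Hochberg adjustment, 11 of 1077 isogroups tested were higher (1.02%) and 2 were lower (0.186%) in mesophotic colonies. At an unadjusted p under 0.05, 179 passed (16.6%). With RLE size factors or with library size alone in place of TMM, 4 were higher and 0 lower, all 4 among the 11. Of the 13 called isogroups, 7 have an informative name in the deposited lookup table. The higher ones are a receptor-type tyrosine phosphatase, a four-and-a-half LIM domain protein, an NFX1-type zinc finger protein, dysferlin, TIMP4 and major vault protein. The lower one is IQ motif containing G. Below, a result in edgeR with no other setting named is from this test of 1077 isogroups. Libraries are bulk RNA, so fewer cells of a type and less RNA per cell cannot be told apart.

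Among the named isogroups the phosphatase had the smallest p. This receptor-type protein tyrosine phosphatase (Mcavernosa06612), one of the membrane enzymes that take phosphate off tyrosines, had 283.2, 3413 and 11397 counts per 1000000 host counts (CPM; lowest, median and highest) in mesophotic libraries, against 12.6, 840.1 and 5056 CPM in shallow libraries. In 7 mesophotic libraries it was above every shallow library, and 7 shallow libraries lay below every mesophotic one. Its log2 fold change was 2.07 ± 0.43 (SE, edgeR, adjusted p = 0.00285), and it was called when any single library was left out. The four-and-a-half LIM domain protein (Mcavernosa08572), of a family known in mammals as scaffolds in muscle and at sites where cells attach, had 0, 4130 and 12303 CPM in mesophotic libraries and 0, 299.4 and 3989 CPM in shallow libraries. All 39 shallow libraries lay below the mesophotic median, and 11 mesophotic libraries lay above every shallow one. It rose by 2.71 ± 0.60 on the log2 scale in mesophotic colonies (edgeR, adjusted p = 0.00586). The call held in 56 of 60 fits that left out 1 library, and the highest adjusted p, 0.0905, came without mesophotic replicate 7. The NFX1-type zinc finger protein (Mcavernosa18847), named for a zinc finger first described in a transcription factor, had 0, 848 and 13736 CPM in mesophotic libraries and 0, 284.7 and 1964 CPM in shallow libraries. It rose by 2.64 ± 0.61 (log2, edgeR, adjusted p = 0.00786), and 6 mesophotic libraries were above every shallow one. The zinc finger protein was called in all 60 fits without 1 library.

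The other named isogroups that rose belong to membranes, matrix and the vault particle. Dysferlin (Mcavernosa08308), known in vertebrate muscle for resealing torn membranes, had 0, 561 and 2272 CPM in mesophotic libraries and 0, 76.1 and 1019 CPM in shallow libraries, with a log2 fold change of 2.35 ± 0.64 (edgeR, adjusted p = 0.0436). TIMP metallopeptidase inhibitor 4 (Mcavernosa28440), which in vertebrates blocks the enzymes that cut extracellular matrix, had 91.6, 830.2 and 7933 CPM in mesophotic libraries and 0, 726 and 7362 CPM in shallow libraries. The medians lie close together and the groups overlap nearly throughout, and the fold change of 1.72 ± 0.48 (log2, edgeR, adjusted p = 0.0444) was called all the same. Major vault protein (Mcavernosa13026), the main constituent of the vault, a large ribonucleoprotein shell of the cytoplasm, had 0, 1579 and 9107 CPM in mesophotic libraries and 0, 538 and 3665 CPM in shallow libraries, and rose by 1.63 ± 0.46 (log2, edgeR, adjusted p = 0.0464). All 3 calls were close to the threshold. Dysferlin was called in 32, TIMP4 in 25 and major vault protein in 32 of 60 fits without 1 library, and the highest adjusted p was 0.125 for dysferlin and 0.281 for TIMP4, both without mesophotic replicate 20, and 0.175 for major vault protein, without mesophotic replicate 19.

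IQ motif containing G (Mcavernosa14659), which carries a calmodulin-binding motif and is known in mammals from the sperm flagellum, was the named isogroup that fell. It was detected in 9 of 21 mesophotic and 32 of 39 shallow libraries. Its CPM had a median of 0 and a highest value of 210.5 in mesophotic libraries, and a median of 139 and a highest value of 880.3 in shallow libraries. In 17 shallow libraries it exceeded every mesophotic one. The log2 fold change was -3.38 ± 0.87 (edgeR, adjusted p = 0.0233), and it was called in 56 of 60 fits without 1 library, with the highest adjusted p, 0.0637, without mesophotic replicate 20. Detection after thinning to 20000 host counts was 4 of 21 mesophotic and 29 of 39 shallow libraries.

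Several of these calls ended under other settings of edgeR. Dysferlin (Mcavernosa08308), TIMP4 (Mcavernosa28440) and major vault protein (Mcavernosa13026) did not pass with RLE size factors, with library size alone, with detected isogroups as a covariate or with barcode run, a stretch of library numbers in which no barcode pair repeats, as a block (adjusted p from 0.0994 to 0.353). The zinc finger protein (Mcavernosa18847) did not pass in these 4 fits either (adjusted p from 0.0615 to 0.167). The phosphatase (Mcavernosa06612) and the four-and-a-half LIM protein (Mcavernosa08572) passed with both scalings and with the block but not with the covariate (adjusted p = 0.167 and 0.0685). IQ motif containing G (Mcavernosa14659) passed with the block and with the covariate but not with RLE size factors or library size alone (adjusted p = 0.102 and 0.0675).

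**Figure D2:**
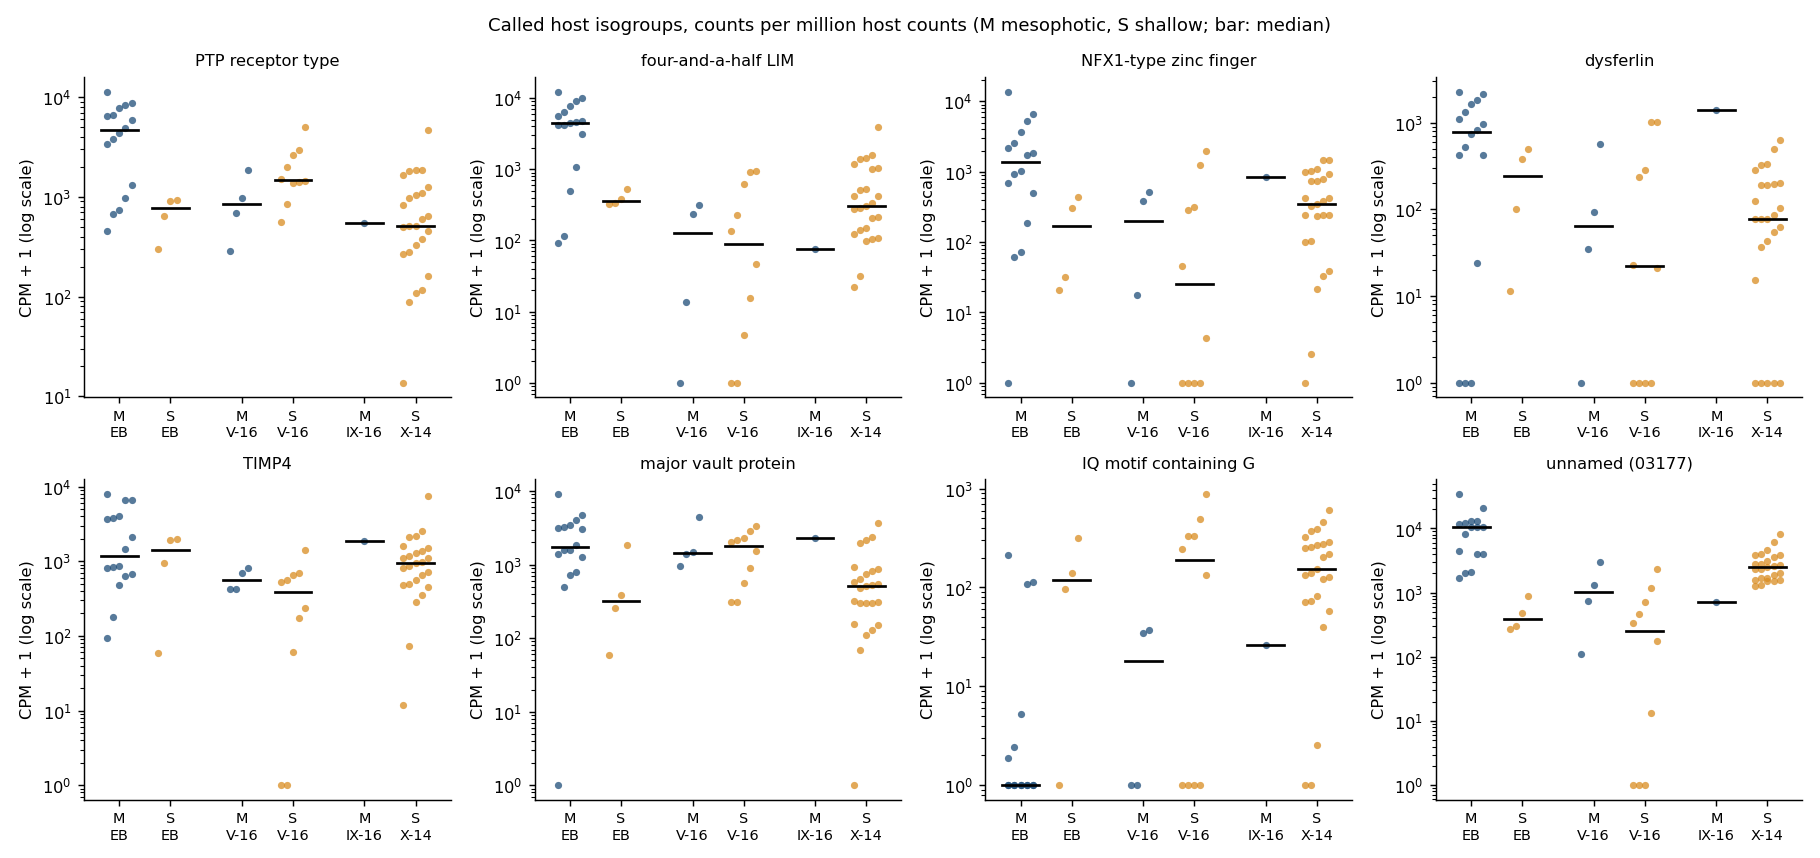
CPM plus 1 (log axis) in every library for the 7 named isogroups that passed and for Mcavernosa03177, with mesophotic (M) and shallow (S) libraries by title tag; bars are medians. Most EB mesophotic libraries stand above EB shallow ones for the four-and-a-half LIM protein (medians 4506 CPM in mesophotic and 359 CPM in shallow), and V-16 libraries of both depths overlap in every panel.

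A further 6 isogroups that passed have no informative name. The smallest adjusted p of the comparison, 0.000749, belonged to Mcavernosa03177, with 110, 4488 and 34381 CPM in mesophotic libraries and 0, 1691 and 8115 CPM in shallow libraries. In 9 mesophotic libraries it was above every shallow library, and its log2 fold change was 2.58 ± 0.48 (edgeR). Among the others, Mcavernosa05931, Mcavernosa19252, Mcavernosa08771 and Mcavernosa08633 were higher by 2.77, 2.12, 2.42 and 2.51 on the log2 scale, and Mcavernosa01998 was lower, at -3.80. Of the last, 69.5% of all counts lay in shallow replicate 9, a library of 635532 host counts. Scaled to CPM, the share of that library was 27.7%. Mcavernosa01998 was detected in 6 of 21 mesophotic and 28 of 39 shallow libraries.

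The size and, for several isogroups, the sign of these fold changes varied between title tags. For the phosphatase (Mcavernosa06612), EB mesophotic libraries had 458, 4665 and 11397 CPM (lowest, median, highest), against 297.4, 639, 908 and 923 CPM in the 4 EB shallow libraries, and 13 of the 16 EB mesophotic libraries stood above all 4. V-16 mesophotic libraries had 283.2, 694, 986 and 1883 CPM, against 556, 1486 and 5056 CPM (lowest, median, highest) in the 10 V-16 shallow libraries. The log2 fold change was 3.20 ± 1.00 in EB and -1.17 ± 0.96 in V-16 libraries (edgeR, adjusted p = 0.340 and 0.998). For the four-and-a-half LIM protein (Mcavernosa08572), EB mesophotic libraries had a median of 4506 CPM, against 327, 335, 382 and 535 CPM in EB shallow libraries, with a fold change of 4.14 ± 1.05 (log2, edgeR, adjusted p = 0.0468). V-16 mesophotic libraries had 0, 12.9, 238 and 314.9 CPM, against a median of 88.8 CPM and a highest value of 940 CPM in V-16 shallow libraries, with a fold change of -1.21 ± 1.99. Folds in V-16 titles were also below 0 for the zinc finger protein (Mcavernosa18847, -0.87 ± 1.73) and dysferlin (Mcavernosa08308, -1.03 ± 1.94). Their V-16 medians lay the other way, at 200.4 CPM in mesophotic and 24.2 CPM in shallow libraries for the zinc finger protein. For dysferlin they were 62.6 CPM in mesophotic and 21.1 CPM in shallow libraries. V-16 folds were above 0 for TIMP4 (Mcavernosa28440, 0.31 ± 1.49) and major vault protein (Mcavernosa13026, 0.29 ± 0.89). TIMP4 had V-16 medians of 560 CPM in mesophotic and 381 CPM in shallow libraries. Its EB medians lay the other way, at 1169 CPM in mesophotic and 1431 CPM in shallow libraries. The X-14 shallow median of TIMP4 was 943 CPM. The vault protein had V-16 medians of 1443 CPM in mesophotic and 1768 CPM in shallow libraries. For IQ motif containing G (Mcavernosa14659) the fold was -2.72 ± 1.81 in EB and -3.91 ± 2.55 in V-16 libraries.

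**Figure D3:**
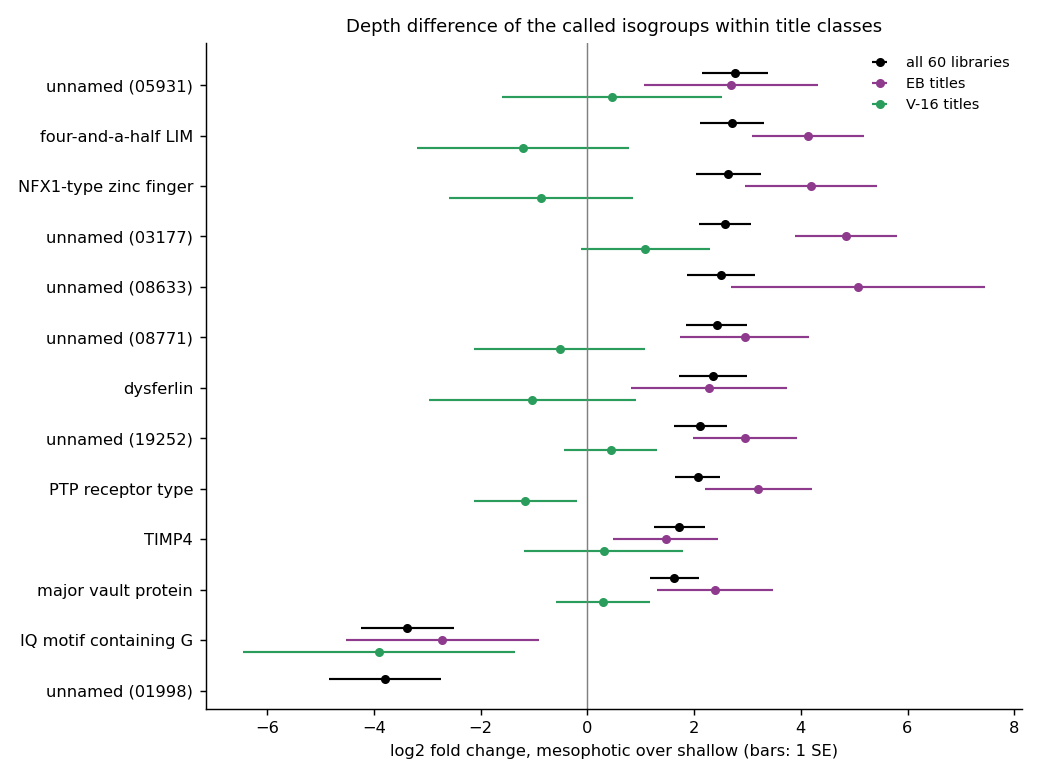
Log2 fold change of mesophotic over shallow libraries with 1 SE for the 13 isogroups that passed, over all 60 libraries, in EB titles (16 mesophotic and 4 shallow) and in V-16 titles (4 mesophotic and 10 shallow), where the isogroup could be tested. For each higher isogroup tested in V-16 titles the fold lies below that over all libraries, as for the phosphatase at -1.17, and the SEs are wide.

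A test of whether the depth difference itself differed between EB and V-16 titles called 1 of 3235 isogroups (0.0309%), which is unnamed, and 382 passed an unadjusted p under 0.05 (11.8%, edgeR). None of the 13 called isogroups passed it, and in limma 0 of 5758 passed, with 545 at an unadjusted p under 0.05. The median of this difference over all isogroups tested was 0.77 in edgeR. The four-and-a-half LIM protein (Mcavernosa08572) had a difference of 5.62 on the log2 scale (adjusted p = 0.0555), and the phosphatase (Mcavernosa06612) one of 4.63 (adjusted p = 0.102). With the X-14 libraries left out, 2 of 969 isogroups passed in edgeR (0.206%, with 8.36% at an unadjusted p under 0.05), both higher in mesophotic libraries and both unnamed, Mcavernosa03177 and Mcavernosa25061. The first had a log2 fold change of 4.32 ± 0.90 (adjusted p = 0.0191), with a median of 4488 CPM in 21 mesophotic libraries and 320.2 CPM in the 14 remaining shallow libraries. Its 16 EB mesophotic libraries all exceeded the 4 EB shallow libraries, which had 269.2, 302.5, 476 and 895 CPM. With title tag as a term in EB and V-16 libraries, only Mcavernosa25061 of 961 isogroups passed in edgeR (0.104%, with 2.39% at an unadjusted p under 0.05), with a fold change of 4.48 ± 1.02 on the log2 scale (adjusted p = 0.0387). It was detected in all 16 EB and 2 of 4 V-16 mesophotic libraries, against 4 of 4 EB and 2 of 10 V-16 shallow libraries. Of the 7 named calls, IQ motif containing G (Mcavernosa14659) fell under the count filter in both tests and the other 6 did not pass. Without X-14 the four-and-a-half LIM protein had 4.00 ± 1.01 (adjusted p = 0.0850). EB titles alone gave 2 higher (0.0894%), the LIM protein and Mcavernosa03177, and 2 lower (0.0894%) of 2237 isogroups, an ABC transporter of subfamily C (Mcavernosa22054, -8.11 ± 1.80, adjusted p = 0.00732) and the unnamed Mcavernosa00404, both named here after their values were seen. V-16 titles alone gave 0 of 1534 in edgeR, with 35 at an unadjusted p under 0.05 (2.28%).

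The balance between the directions differed with the tool and with the filter on low counts. Limma worked on log2 CPM scaled by library size alone, without TMM, so its scaling differed from that of edgeR as well. With limma on 7430 isogroups detected in at least 10% of libraries, 11 were higher (0.148%) and 168 were lower (2.26%) in mesophotic libraries, against 11 higher and 2 lower of 1077 in edgeR. EdgeR on the same 7430 isogroups called 631 higher (8.49%) and 1824 lower (24.5%), with a median log2 fold change of -0.755, and AHNAK, Grp94 and COLFI, described below, were among the lower ones. DESeq2 on the counts called 91 higher (8.45%) and 33 lower (3.06%) of 1077. The median log2 fold change was -0.40 over all isogroups tested in limma and -0.07 in edgeR. Of the 13 isogroups called by edgeR, 6 passed in limma as well. With the number of detected isogroups (log2) as a covariate, limma called 0 higher and 0 lower, and 347 isogroups passed an unadjusted p under 0.05 (4.67%), so none of the limma calls over all libraries held with it. EdgeR with the same covariate called 2 higher and 1 lower. AHNAK nucleoprotein (Mcavernosa26996), a very large scaffold protein in vertebrates, had a limma adjusted p of 0.000738. It was detected in 14 of 21 mesophotic libraries, with a median of 3.63 CPM, and in 37 of 39 shallow libraries, with a median of 854 CPM. Its log2 fold change was -3.51 in limma (-2.17 with the covariate, adjusted p = 0.213) and -1.79 ± 0.68 in edgeR (adjusted p = 0.163). By title tag its median was 1.30 CPM in EB and 216.9 CPM in V-16 mesophotic libraries, against 626 CPM in EB, 525.6 CPM in V-16 and 1216 CPM in X-14 shallow libraries.

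Grp94 (Mcavernosa03557), the HSP90 chaperone of the endoplasmic reticulum that folds secreted and membrane proteins, had lower values in mesophotic libraries within both shared title tags. It had 0, 229 and 1257 CPM (lowest, median and highest) in mesophotic libraries and 3.15, 1005 and 3798 CPM in shallow libraries. EB mesophotic libraries had a median of 42.7 CPM, against 1073, 1328, 1783 and 1865 CPM in the 4 EB shallow libraries, and 15 of 16 lay below all 4. V-16 mesophotic libraries had 0, 329, 609 and 622 CPM, all below the 10 V-16 shallow libraries, whose lowest was 805 CPM and whose median was 1201 CPM. X-14 shallow libraries had a median of 731 CPM. The log2 fold change was -1.58 ± 0.56 over all libraries in edgeR and did not pass (adjusted p = 0.132). In limma it was -2.71 ± 0.57 (adjusted p = 0.00757). Without X-14 it was 1 of 3 isogroups that were lower in limma (-3.79, adjusted p = 0.0145), which were 0.0517% of 5799 tested, with 4 higher (0.069%). With the covariate for detected isogroups it did not pass in limma (adjusted p = 0.453). In edgeR the fold was -2.22 ± 1.35 in EB and -2.39 ± 1.10 in V-16 libraries, neither past the threshold (adjusted p = 0.856 and 0.998). Grp94 was followed because of its values in an earlier account of these libraries, so its direction is no independent result.

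**Figure D4:**
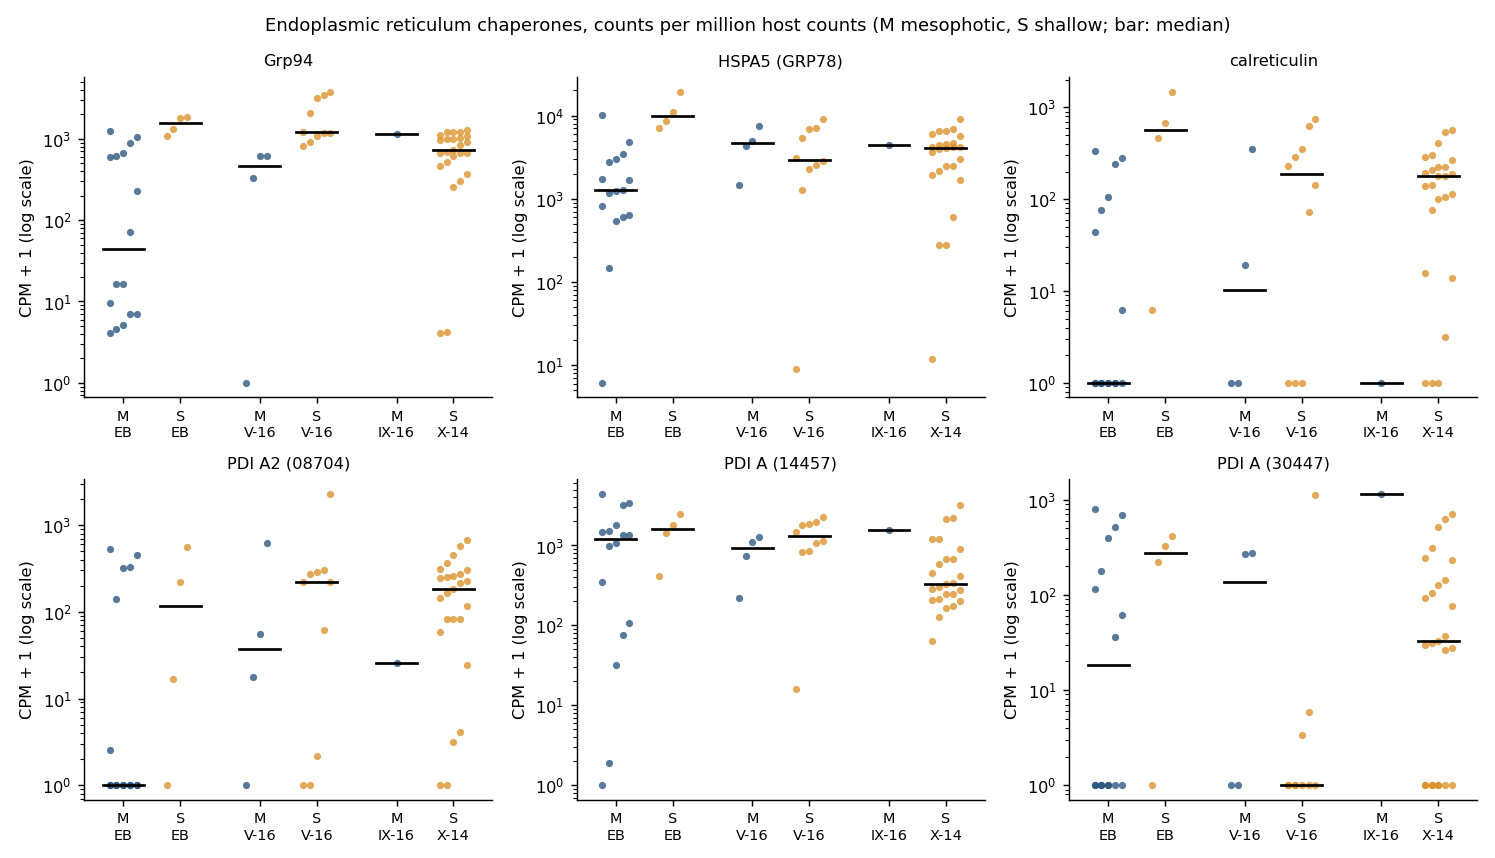
CPM plus 1 (log axis) in every library for the 6 endoplasmic reticulum chaperones tested, by depth (M mesophotic, S shallow) and title tag; bars are medians. For Grp94 the 4 V-16 mesophotic libraries (0 to 622 CPM) lie below the 10 V-16 shallow libraries (805 CPM and above).

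The other chaperones of the same compartment, added after their values had been seen, did not share this pattern throughout, and none of them passed in edgeR. HSPA5 (Mcavernosa18764), the HSP70 of the endoplasmic reticulum, had a median of 1255 CPM in EB mesophotic libraries, against 7137, 8499, 11050 and 19326 CPM in EB shallow libraries, and 15 of 16 lay below all 4. In V-16 titles its median was 4670 CPM in mesophotic and 2952 CPM in shallow libraries. The fold over all libraries was -0.59 ± 0.42 on the log2 scale (edgeR, adjusted p = 0.460). Calreticulin (Mcavernosa26482), a calcium-binding chaperone of glycoproteins, was detected in 9 of 21 mesophotic and 33 of 39 shallow libraries, with a fold of -1.33 ± 0.79 (edgeR, adjusted p = 0.371; limma -2.11, adjusted p = 0.0363, and 0.988 with the covariate). Protein disulfide isomerases, which form disulfide bonds in the same compartment, had folds of -0.63 ± 0.78 (Mcavernosa08704), 0.42 ± 0.50 (Mcavernosa14457) and 0.67 ± 0.81 (Mcavernosa30447). Over all 21 tested heat shock proteins and chaperones the median log2 fold change was -0.53, with 7 above 0, and none was called (all isogroups: -0.07, 509 of 1077 above 0, 1.21% called).

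Among the other chaperones an HSP70 (Mcavernosa26318) had 0, 1130 and 5490 CPM in mesophotic libraries and 0, 285.6 and 3795 CPM in shallow libraries, with a fold of 1.94 ± 0.58 (log2, edgeR, adjusted p = 0.0725). Peptidylprolyl isomerase D (Mcavernosa02573), a cyclophilin that works with HSP90 in vertebrates, was detected in 7 of 21 mesophotic and 30 of 39 shallow libraries (log2 fold -3.22 ± 0.93, edgeR, adjusted p = 0.0532). Sacsin (Mcavernosa26235), a large protein with chaperone-like domains, was detected in 10 of 21 mesophotic and 31 of 39 shallow libraries (-2.73 ± 0.86, edgeR, adjusted p = 0.0944). None of the 3 passed the threshold in edgeR, and they lie on both sides of 0.

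Ribosomal proteins had a higher median share of host counts in mesophotic libraries, and most of the gap between the medians was L6. The 82 isogroups named as cytosolic ribosomal proteins summed to 4.61, 10.6 and 16.6% of host counts (lowest, median, highest) in mesophotic libraries, against 4.08, 5.99 and 16.0% in shallow libraries. Ribosomal protein L6 (Mcavernosa17045) alone had 16142, 59232 and 131246 CPM in mesophotic libraries and 9485, 22714 and 120929 CPM in shallow libraries. Its fold of 0.97 ± 0.36 on the log2 scale did not pass (edgeR, adjusted p = 0.154). Without L6 the summed median was 4.48% in mesophotic and 3.56% in shallow libraries. Of the 39 tested ribosomal proteins, 0 were called and 32 had a fold above 0, with a median of 0.53 on the log2 scale, against -0.07 over all 1077 isogroups tested. Scaling by RLE size factors or by library size alone moved the median of all isogroups by -0.30 and -0.20, and the ribosomal median was then 0.24 with 24 of 39 above 0 and 0.39 with 28 of 39 above 0. In limma the ribosomal median was -0.15, with 30 of 65 above 0, against -0.40 over all isogroups tested.

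The ribosomal proteins with the smallest p were S8 (Mcavernosa14923), S10 (Mcavernosa25242) and L35A (Mcavernosa09366), each a structural part of 1 ribosomal subunit. S8 had 140, 2372 and 7966 CPM in mesophotic libraries and 114.1, 501 and 10593 CPM in shallow libraries, with a fold of 1.60 ± 0.46 (log2, edgeR, adjusted p = 0.0532). It passed when the 2 libraries under the minimum were kept (edgeR, adjusted p = 0.0398). S10 had a fold of 1.79 ± 0.56 (adjusted p = 0.0944) and L35A one of 1.38 ± 0.45 (adjusted p = 0.0977), both by edgeR. S6 (Mcavernosa30052) lay on the other side, with a median of 150.6 CPM in mesophotic and 1391 CPM in shallow libraries and a fold of -0.99 ± 0.51 (edgeR, adjusted p = 0.315). By title tag, the summed share had a median of 11.3% in EB mesophotic libraries, against 5.42, 5.75, 7.48 and 7.93% in EB shallow libraries. In V-16 titles the shares were 6.17, 6.53, 9.09 and 12.5% in mesophotic libraries, against a median of 9.14% in shallow libraries, and 22 of 43 tested members had a fold above 0. X-14 shallow libraries had a median of 5.25%.

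**Figure D5:**
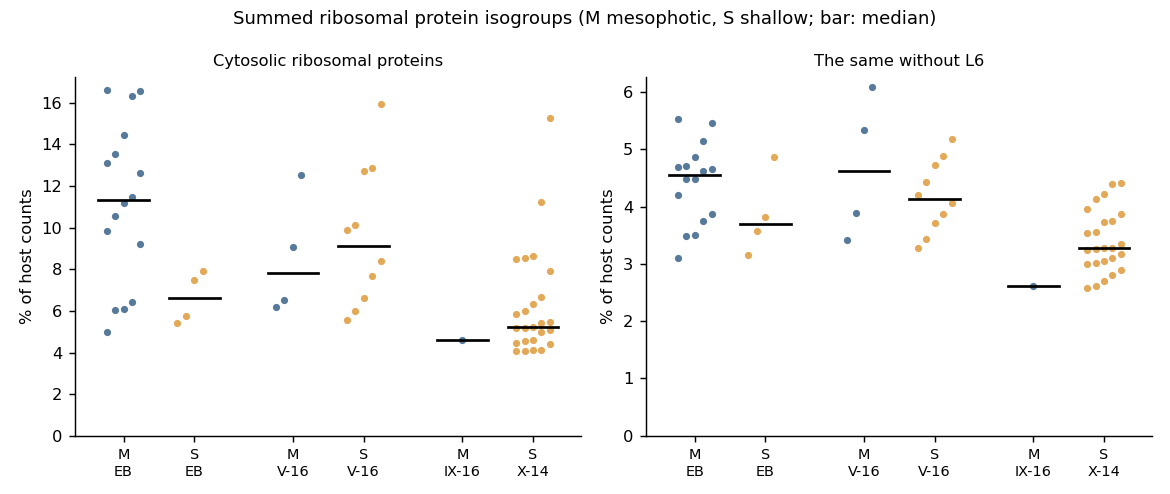
Percent of host counts in isogroups named as cytosolic ribosomal proteins in every library, with all members and without L6, by depth (M mesophotic, S shallow) and title tag; bars are medians. Most EB mesophotic libraries (median 11.3%) lie above the EB shallow ones (5.42 to 7.93%), and both depths overlap in V-16 titles.

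None of the 31 gene lists had a member called in edgeR, against 1.21% of all isogroups tested. Median folds were lowest for histones and chromatin proteins (-0.95 over 7 tested members, 1 above 0), the germ line list (-0.74 over 5, 0 above 0) and protein kinases (-0.71 over 22, 5 above 0), leaving out lists with fewer than 5 members tested. They were highest for RNA helicases and splicing factors (1.05 over 8, 7 above 0), ribosomal proteins and the apoptosis and autophagy list (0.49 over 8, 4 above 0). In limma the median for RNA helicases and splicing was -0.47, with 10 of 58 members above 0. For ribosomal proteins it was -0.15 (30 of 65 above 0), and for apoptosis and autophagy -0.40 (9 of 48). Limma medians were -0.48 for histones and chromatin, -0.47 for the germ line list and -0.46 for protein kinases. Over all isogroups the limma median was -0.40, with 1274 of 7430 above 0. In edgeR on V-16 titles alone the RNA helicases and splicing list stood at -0.10, with 9 of 18 tested members above 0. Its member with the smallest p was a splicing factor 3b subunit (Mcavernosa17916), part of the spliceosome, with medians of 1702 CPM in mesophotic and 647 CPM in shallow libraries and a fold of 1.28 ± 0.46 (log2, edgeR, adjusted p = 0.138). In limma, the lists with most lower calls were protein kinases (7, or 3.87% of those tested), matrix and adhesion (4, 3.96%), innate immunity (4, 4.21%), lipid and sterol metabolism (4, 4.40%) and the secretory pathway (4, 3.81%), against 2.26% of all isogroups. Heat shock proteins and chaperones, muscle and actin cytoskeleton, and peptidases had 3 lower calls each. No isogroup name matched a fluorescent protein. No member of the calcification, mitochondrial ribosomal protein or nematocyte lists had counts enough for the edgeR test, and in limma 1 of 5 calcification members was lower, with none called of 9 mitochondrial ribosomal proteins and 2 nematocyte members.

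In energy metabolism and iron storage no isogroup passed in the edgeR test of 1077. Glyceraldehyde-3-phosphate dehydrogenase (Mcavernosa22152), a glycolytic enzyme, had medians of 951 CPM in mesophotic and 347 CPM in shallow libraries and a fold of 1.80 ± 0.51 (log2, edgeR, adjusted p = 0.0532). It passed when the 2 libraries under the minimum were kept (1.83 ± 0.50, edgeR, adjusted p = 0.0398). Cytochrome c oxidase subunit I (Mcavernosa30572), of respiratory complex IV, passed at -1.97 ± 0.48 in edgeR on the libraries of at least 100000 host counts (adjusted p = 0.0368), and is named here after its values were seen. NADH dehydrogenase Fe-S protein 6 (Mcavernosa15890), a subunit of respiratory complex I, had medians of 862 CPM in mesophotic and 181.5 CPM in shallow libraries and a fold of 1.80 ± 0.58 (adjusted p = 0.0977 by edgeR). The pair of isogroups described as storing iron, as ferritins do, pointed in opposite directions. Mcavernosa17019 had a median of 5.14 CPM in mesophotic and 370.2 CPM in shallow libraries, with a fold of -1.78 ± 0.68 in edgeR (adjusted p = 0.163) and -2.86 in limma (adjusted p = 0.00255, and 0.273 with the covariate). Mcavernosa17017, added after its values had been seen, had a median of 5827 CPM in mesophotic and 2362 CPM in shallow libraries, with a fold of 0.80 ± 0.42 (edgeR, adjusted p = 0.315). Both carry the same description, and how reads were divided between related isogroups is not given in the sources used here.

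Apart from TIMP4 and the receptor-type phosphatase, the matrix, signalling and light-related isogroups followed here stayed short of the threshold in edgeR. Collagen type VI alpha 5 (Mcavernosa03803), a matrix fibre protein, reached 3761 CPM in mesophotic and 1830 CPM in shallow libraries, with 0 as the lowest at both depths (1.37 ± 0.57, adjusted p = 0.205). A fibrillar collagen domain isogroup, COLFI (Mcavernosa14405), was detected in 12 of 21 mesophotic and 35 of 39 shallow libraries (-2.24 ± 0.77, edgeR adjusted p = 0.131; limma -2.95, adjusted p = 0.00486, and 0.482 with the covariate). A purple acid phosphatase (Mcavernosa00737), a metal-bearing enzyme that frees phosphate, had 9.28, 2401 and 11425 CPM in mesophotic and 1590, 7328 and 30859 CPM in shallow libraries (-1.16 ± 0.37, edgeR adjusted p = 0.0977). A serine/threonine protein kinase (Mcavernosa13575) had 13.1, 1866 and 7440 CPM in mesophotic and 327, 5397 and 14857 CPM in shallow libraries (-1.05 ± 0.37, edgeR adjusted p = 0.132), and its fold was -1.29 in EB and -1.24 in V-16 titles. After thinning all libraries to 20000 host counts, where 381 isogroups could be tested, the kinase (Mcavernosa13575) passed at -1.34 ± 0.36 (edgeR, adjusted p = 0.0199). Cryptochrome 1 (Mcavernosa10901), a blue-light receptor or clock protein related to photolyases, was detected in 11 of 21 mesophotic and 33 of 39 shallow libraries. It had a fold of -0.94 ± 0.79 in edgeR (adjusted p = 0.523) and -2.37 in limma (adjusted p = 0.0363, and 0.988 with the covariate). Of the clock and photoreception list it was the sole member tested in edgeR. In limma 8 members were tested and 1 was called lower, with a median fold of -0.15 over the 8. Mib_herc2 (Mcavernosa04218), named for a domain of ubiquitin ligases, was detected in 15 of 21 mesophotic and 17 of 39 shallow libraries. It fell under the count filter of the edgeR test, and its limma fold was 2.22 (adjusted p = 0.0188, and 0.1455 with the covariate).

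Summed levels of cell type markers overlapped between the depths. Germ line markers made up 0.09997 to 0.844% of host counts in mesophotic libraries and 0.193 to 1.08% in shallow libraries, with medians of 0.370% in mesophotic and 0.538% in shallow libraries. Mucus and gland cell markers had medians of 0.462% in mesophotic and 0.450% in shallow libraries, ciliary markers 0.280% in mesophotic and 0.292% in shallow, neuronal markers 0.0958% in mesophotic and 0.141% in shallow, and muscle and actin markers 1.195% in mesophotic and 1.295% in shallow libraries. Nematocyte markers, 4 isogroups, had a median of 0 at both depths. Tropomyosin (Mcavernosa22658), of the contractile apparatus, had medians of 1371 CPM in mesophotic and 346 CPM in shallow libraries and a fold of 1.16 ± 0.47 (log2, edgeR, adjusted p = 0.196). It was the member of the muscle and actin list with the smallest p. Of 16 members tested in edgeR, 8 had a fold above 0, with a median of -0.008. In limma 11 of 85 were above 0 (all isogroups: 1274 of 7430) and 3 were lower (3.53%, against 2.26% of all isogroups). The part of cell type makeup in the calls was not tested.

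The EFGB depth difference was also set against that of the other 3 sites. The contrast of the EFGB difference minus the mean difference of the other sites, over all natural libraries of at least 20000 host counts, was called positive for 6.83% and negative for 9.34% of 3703 isogroups, 16.2% in all (edgeR). In the same fit of 3703 isogroups the EFGB depth difference itself was called higher for 2.51% and lower for 6.24%. Limma called 26 higher and 445 lower of 6629 (0.392% and 6.71%). Of the 13 isogroups called at EFGB, 11 passed this contrast in edgeR, 5 with RLE size factors, 4 in limma and 3 without X-14. They were chosen for their EFGB difference, which is part of this contrast, so these counts are no independent support. The phosphatase (Mcavernosa06612) had a difference of 2.60 ± 0.60 on the log2 scale (adjusted p = 0.000849), with depth folds of 1.00 at WFGB, -0.63 at PRTER and -1.76 at CBC. For the four-and-a-half LIM protein (Mcavernosa08572) it was 2.43 ± 0.89 (edgeR, adjusted p = 0.0429), with folds of 1.36, -1.49 and -0.81 at the same sites. For IQ motif containing G (Mcavernosa14659) it was -2.31 ± 1.07 and did not pass (edgeR, adjusted p = 0.133). Major vault protein (Mcavernosa13026) did not pass either (1.11 ± 0.78, edgeR, adjusted p = 0.349), with a fold of 2.60 at WFGB.

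The named isogroups with the smallest p in this contrast were thinly detected at EFGB, and for some of them 1 library held most of the counts. The lowest share of counts in the top library was 14.55%, for a collagen (Mcavernosa10314) with 55 counts in all. DEAD box polypeptide 52 (Mcavernosa13577), an RNA helicase, was detected in 1 of 21 mesophotic and 8 of 39 shallow libraries at EFGB, and 89.1% of its counts came from mesophotic replicate 10. Coiled-coil domain containing 22 (Mcavernosa13821) was detected in 0 of 21 mesophotic and 16 of 39 shallow libraries. Excision repair protein 6 (Mcavernosa07547), a DNA repair factor, was detected in 3 of 21 mesophotic and 19 of 39 shallow libraries, with 95.1% of its counts in shallow replicate 9. Dynein cytoplasmic 1 intermediate chain (Mcavernosa22292), part of the motor that moves cargo along microtubules, was detected in 10 of 21 mesophotic and 15 of 39 shallow libraries, with highest values of 1047 CPM in mesophotic and 44.2 CPM in shallow libraries and medians of 0 at both depths, and 65.1% of its counts lay in mesophotic replicate 21. These shares are of raw counts, so deep libraries weigh more. Scaled to CPM, the top library held 51.5% for Mcavernosa13577 and 53.1% for Mcavernosa07547, in the same libraries. For Mcavernosa22292 it was mesophotic replicate 15, with 29.3%.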

How the data were processed

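Tags were counted per isogroup by the authors, who deposited whole-number counts for every library of the series, with a lookup table of isogroup names, per the file headers. No aligner, read filter or treatment of duplicates is named in the sources used. 1 column without a name was not used. Groups came from source names; colonies are not identified beyond titles, and replicate numbers follow accession order. Host isogroups (12005 of 17901 with a name) were scaled within the host total. Libraries under 20000 host counts were left out, except in the fit of all libraries and in the comparisons of host counts and symbiont share by depth.

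The main test was edgeR 4.0.16 (R 4.3.3), robust quasi-likelihood with TMM and filterByExpr over the EFGB libraries, at an adjusted p of 0.05 over all isogroups tested. These 1077 isogroups held 80.48% of host counts, and TMM factors ran from 0.2055 to 1.493. Its SE is the fold divided by the root of F. Alternatives were DESeq2 1.42.0 and limma 3.58.1 (trend, robust, log2 CPM by library size without TMM, prior count 2), other scalings and filters, covariates, inferred barcode runs, title classes, and each library left out. Library measures used 2-sided permutation tests (100000 resamples, or exact), adjusted over 5 measures. CPM in the text is per 1000000 host counts without TMM. The edgeR and limma fits were also run on simulated counts with the same dispersion for every isogroup and no title tags. These settings differ from the data, so no conclusion is drawn from that run.

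Genes were named by a rule: isogroups called with an informative name, up to 12 each way by p, filled to 10 each way with the next by p; those called within title classes or against other sites, up to 6 each way; the smallest p of each list; and 5 isogroups known from an earlier account. Chaperones of the endoplasmic reticulum and Mcavernosa17017 were added later. The members and lists were chosen with earlier results of these data known, and the word patterns of the 31 lists were tidied after names and first results had been seen. No 2 libraries of a group agreed within sampling noise: the lowest chi-square per degree of freedom was 7.06 among mesophotic and 4.35 among shallow pairs. Intervals for single shares are not given.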

Additional observations from a re-analysis of the deposited data

Results flagged for a closer look

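Single libraries stood apart from the others of their depth and title tag in 8 cases, by Dixon's criterion in 3 groups of 4 to 10 libraries. Chance alone gives about 1 such case in 20 tests, and 57 tests were made. These tests share the libraries of the 3 groups, so they are not independent of each other. Shallow EB replicate 1 had 190987 host counts. In mesophotic V-16 replicate 6 the top isogroup took 3.003% of host counts, and Mcavernosa19252 was at 36.56 CPM. Mcavernosa01998 was at 173.8 CPM in mesophotic V-16 replicate 17 and at 755 CPM in shallow V-16 replicate 10. Mcavernosa05931 was at 13.69 CPM in mesophotic V-16 replicate 13, Mcavernosa19252 at 7.275 CPM in shallow V-16 replicate 39, and Mcavernosa25061 at 43.8 CPM in shallow V-16 replicate 17.

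The depth difference at EFGB differed from the mean of the other 3 sites for 34 of the 70 isogroups followed, named or unnamed (edgeR, adjusted p under 0.05). Over all 3703 isogroups tested the share was 16.2%. Many of the 34 were picked because they passed this contrast, or for their EFGB difference, which is part of it. The count is therefore no independent support. The values that follow are differences of log2 fold changes. Isogroups called at EFGB had 2.60 for the phosphatase (Mcavernosa06612), 2.43 for the four-and-a-half LIM protein (Mcavernosa08572), 3.35 for the NFX1-type zinc finger protein (Mcavernosa18847), 2.56 for dysferlin (Mcavernosa08308) and 2.45 for TIMP4 (Mcavernosa28440). The unnamed ones had 2.38 (Mcavernosa03177), 3.46 (Mcavernosa05931), 3.95 (Mcavernosa08633), 2.77 (Mcavernosa08771), 2.18 (Mcavernosa19252) and -5.76 (Mcavernosa01998).

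Isogroups that were not called at EFGB also had positive differences. They were 2.99 for glyceraldehyde-3-phosphate dehydrogenase (Mcavernosa22152), 1.74 for S8 (Mcavernosa14923), 2.74 for the sorting protein PACS (Mcavernosa00115), 2.22 for the HSP70 (Mcavernosa26318) and 2.44 for an ammonium transporter (Mcavernosa08187). Further values were 2.12 for elongation factor 1 gamma (Mcavernosa28555), 1.99 for a RAB protein (Mcavernosa20310), 3.35 for BAG6 (Mcavernosa18529), 1.68 for a mitochondrial carrier (Mcavernosa19699) and 4.01 for Mib_herc2 (Mcavernosa04218). Sacsin (Mcavernosa26235) had -4.20. A positive difference need not mean a higher level in mesophotic libraries at EFGB. The ammonium transporter (Mcavernosa08187) had EFGB medians of 13.7 CPM in mesophotic and 89.7 CPM in shallow libraries, with a fold of -0.51 (log2, edgeR) that was not called.

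The thinly detected isogroups of that contrast had the extreme values. On the positive side these were 6.99 (Mcavernosa13577, DEAD box polypeptide 52), 6.43 (Mcavernosa22292, dynein intermediate chain), 6.34 (Mcavernosa19050), 6.47 (Mcavernosa08332), 6.77 (Mcavernosa07902, a complex I flavoprotein) and 6.38 (Mcavernosa09414). On the negative side they were -6.72 (Mcavernosa13821), -5.99 (Mcavernosa10314, a collagen), -6.93 (Mcavernosa08083), -6.28 (Mcavernosa10313), -7.76 (Mcavernosa07547) and -6.66 (Mcavernosa19388, septin 3).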

How the results depend on the processing

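No paired analysis was possible because replicate numbers follow accession order and name libraries only. Isogroups called at EFGB were 11 higher (1.02% of those tested) and 2 lower (0.186%) as reported. They became 4 and 0 (0.371% and 0%) with RLE size factors and with library-size scaling alone, which moved the median of all isogroups by -0.297 and -0.201. They became 91 and 33 (8.45% and 3.06%) with DESeq2, 11 and 168 (0.148% and 2.26%) with limma, 0 and 0 (0%) with limma and the detection covariate, 4 and 3 (0.069% and 0.0517%) with limma without X-14, and 2 and 1 (0.186% and 0.0929%) with edgeR and that covariate or with barcode run as block. Looser filters gave 1065 and 2666 (11.7% and 29.4%) with a minimum of 10 counts in all and 631 and 1824 (8.49% and 24.5%) with detection in 10% of libraries. Without X-14 it was 2 and 0 (0.206% and 0%), with title class as a term 1 and 0 (0.104%), in limma with that term, chosen after seeing the data, 0 and 0, in EB titles 2 and 2 (0.0894% each) and in V-16 titles 0 and 0. Libraries of at least 100000 host counts gave 0 and 2, all libraries 14 and 1 (0.0912% lower), a fit of all sites 2.51% and 6.24%, and thinning 8 and 1 (0.262% lower). The cause was not tested. Leaving out 1 library gave 6 to 56 higher (0.564% to 5.31%) and 0 to 7 lower (0% to 0.616%). Without shallow replicate 9 it was 56 and 3, without 22 it was 23 and 6, without 39 it was 22 and 3, without 12 it was 19 and 2, and without 3 or 34 it was 18 and 2. Without mesophotic replicate 18 it was 19 and 4, and without 4, 8, 12 or 13 it was 7, 4, 4 or 5 lower. It was 6 or 7 higher and 0 or 1 lower without mesophotic 20 or 21 or shallow 2, 8, 11, 13, 16, 18, 23, 26, 28, 30, 31 or 33, and 8 to 16 higher and 1 lower without mesophotic 14 or shallow 1, 4, 7, 10, 14, 27, 29, 38 or 41. The contrast with other sites became 1.65% higher with RLE, 0.392% higher with limma, and 2.78% higher and 4.23% lower without X-14, against 6.83% and 9.34%.
Without X-14 the library measures, as log2 differences, did not pass at 0.54 for host counts, -0.30 for isogroups detected, -0.33 after thinning and 0.48 for the top isogroup. In V-16 titles they were -0.95, 0.11 and 0.22 for the first 3, with the sign turned, and 0.10 for the top isogroup; the symbiont share passed in EB titles at -0.98. Folds with the sign turned in V-16 titles were -1.17 (Mcavernosa06612), -1.21 (Mcavernosa08572), -0.87 (Mcavernosa18847), -1.03 (Mcavernosa08308), -0.52 (Mcavernosa08771), -0.056 (Mcavernosa14923), -0.22 (Mcavernosa26318), 0.56 (Mcavernosa14272), -0.76 (Mcavernosa28555), -0.81 (Mcavernosa22255), -2.82 (Mcavernosa20310), -0.62 (Mcavernosa19699), 0.48 (Mcavernosa09213), -0.61 (Mcavernosa17045), -0.84 (Mcavernosa14457), -0.071 (Mcavernosa17017) and 0.13 (Mcavernosa18764). With the title term they were -0.44 (Mcavernosa20310), -0.35 (Mcavernosa14457) and -0.084 (Mcavernosa30447), in EB titles -0.25 (Mcavernosa30447), and with run as block 0.077 (Mcavernosa09213). Mcavernosa14457 turned to -0.12 in limma, -1.19 in limma and -0.80 in edgeR with the covariate, -0.95 in limma and -0.094 in edgeR without X-14, -0.18 with a minimum of 10 counts and -0.21 in deep libraries. The remaining turns were -0.009 (Mcavernosa03803) and 0.078 (Mcavernosa18764) in limma with the covariate, -0.31 (Mcavernosa33738) in limma, and -0.39 (Mcavernosa25061) and -0.27 (Mcavernosa17017) with a minimum of 10 counts. Median CPM in V-16 titles turned along with some of the turned V-16 folds, as for Mcavernosa20310 (709.4 in mesophotic and 3476 in shallow libraries). It did not turn with others, as for Mcavernosa22255 (200 in mesophotic and 7.506 in shallow libraries) and Mcavernosa26318 (203.7 in mesophotic and 88.07 in shallow libraries). Libraries as shallow as 20000 host counts limit what can be seen of rare isogroups.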
